A study of Mus musculus with 12 samples.

Results

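The genes of cholesterol and fatty acid synthesis that are controlled by the sterol regulatory element-binding proteins (SREBPs) were followed in 4T1 mouse mammary tumours after MBQ-167, paclitaxel or both. The set is a list of 34 genes, found by symbol among the 46078 genes of the deposited count table. Its rule uses gene names and no measured value. Earlier results of these data were known when the members were chosen, so no test was made over the list. It holds 17 enzymes of the sterol pathway, 6 genes of SREBP regulation and sterol transport, and 11 enzymes that make, lengthen or desaturate fatty acids. All 34 members passed the filter on low counts, which kept 18252 genes for testing.

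The tumours came from BALB/c mice that received 300000 4T1 cells in the mammary fat pad (number 4). 4T1 is a metastatic mouse mammary carcinoma line, here with firefly luciferase, and the labels give the genotype of every sample as WT. Dosing started on day 14 and ran for 2 weeks, and tumours were taken on day 28. One group received vehicle, whose make-up is not given in the sources used here. Another received MBQ-167, a small-molecule inhibitor of the GTPases Rac and Cdc42, at 100 mg/kg 5 times a week. The paclitaxel group received 5 mg/kg of this microtubule-stabilising drug 1 time a week, and the combination group received both drugs on these schedules. Each group holds 3 libraries, labelled biological replicates. Separate mice are not stated, and the p-values below rest on the spread among the libraries, which may be technical. The labels speak of 2 occasions of cell injection without assigning libraries to them, so an effect of occasion and of group cannot be told apart.

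The libraries held 11540557 to 17001562 counts each. Epithelial markers fitting a carcinoma were present in all 12, with Epcam at 32.1 to 346.5 CPM and Krt8 at 277.3 to 694.4 CPM. CPM is counts scaled to library size as corrected by TMM factors, which are given under the processing. The 5 milk protein genes looked at summed to 0.093 to 1.36 CPM, with 1 to 4 of them at 0 in each library. Among them, Csn1s1 had no count anywhere. Vehicle library 3 stood apart in neutrophil markers: 8 genes summed to 1320 CPM there and to 303 to 310 CPM in the other vehicle libraries. The same sum was 143 to 199 CPM in MBQ-167, 89.6 to 177 CPM in paclitaxel and 84.9 to 120 CPM in combination libraries. In such bulk samples, fewer cells of a type and less RNA per cell cannot be told apart.

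SREBPs are transcription factors held in the membrane of the endoplasmic reticulum with their escort SCAP. When sterols are scarce, SCAP carries them to the Golgi, where proteases release the active part, and when sterols are plentiful, INSIG proteins keep SCAP in place. SREBP2, encoded by Srebf2, acts mainly on cholesterol synthesis, and SREBP1, encoded by Srebf1, mainly on fatty acid synthesis. SREBPs are weak activators alone and work beside the cofactors NF-Y and Sp1, whose boxes lie near their binding sites. Tumour cells draw on both pathways for membranes.

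The promoters of 4 members are shown because they belong to a called gene (Srebf2), to members among the 3 smallest p of their role group against vehicle (Mvd, Insig1) or to the only match to the sterol regulatory element (Hmgcs1). Each runs from 250 bases before to 50 bases after the RefSeq start on GRCm38.p6, 5′ to 3′ along the gene's strand. Capitals mark the NF-Y box CCAAT on either strand and, in Hmgcs1, also the element core. The windows are chr15:82147019-82147318 (+) for Srebf2, chr8:122443373-122443672 (-) for Mvd, chr5:28071162-28071461 (+) for Insig1 and chr13:119690101-119690400 (+) for Hmgcs1.
Srebf2: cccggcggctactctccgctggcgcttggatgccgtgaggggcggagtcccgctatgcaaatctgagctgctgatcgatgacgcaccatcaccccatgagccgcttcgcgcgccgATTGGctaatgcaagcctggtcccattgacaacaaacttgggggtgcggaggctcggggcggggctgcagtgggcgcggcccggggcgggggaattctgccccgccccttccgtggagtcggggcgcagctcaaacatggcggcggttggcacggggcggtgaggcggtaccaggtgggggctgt
Mvd: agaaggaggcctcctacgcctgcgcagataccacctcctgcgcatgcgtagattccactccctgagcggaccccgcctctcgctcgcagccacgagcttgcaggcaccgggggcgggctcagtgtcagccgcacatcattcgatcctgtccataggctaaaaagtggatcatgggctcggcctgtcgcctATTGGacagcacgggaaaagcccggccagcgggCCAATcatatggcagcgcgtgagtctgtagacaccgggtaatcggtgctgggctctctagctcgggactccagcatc
Insig1: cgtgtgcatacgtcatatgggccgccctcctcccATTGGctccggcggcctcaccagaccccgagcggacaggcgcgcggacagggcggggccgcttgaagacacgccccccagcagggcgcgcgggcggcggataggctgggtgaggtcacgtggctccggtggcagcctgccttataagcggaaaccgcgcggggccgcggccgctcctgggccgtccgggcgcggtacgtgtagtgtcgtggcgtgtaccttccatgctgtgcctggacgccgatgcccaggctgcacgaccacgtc
Hmgcs1: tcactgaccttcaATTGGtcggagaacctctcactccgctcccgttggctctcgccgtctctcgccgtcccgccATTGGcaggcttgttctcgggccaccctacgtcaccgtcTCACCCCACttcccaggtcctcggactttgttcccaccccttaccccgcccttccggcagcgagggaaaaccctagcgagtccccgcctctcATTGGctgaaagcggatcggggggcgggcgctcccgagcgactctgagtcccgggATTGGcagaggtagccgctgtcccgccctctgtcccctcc

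A promoter window was at hand for 27 of the 34 members, and both strands of each were searched for 4 motifs. The NF-Y box CCAAT occurred in 23 of 27 members (85.2%), against 42.1% of 16522 protein-coding genes and 41.1% of all 27025 genes with a window. All 14 sterol enzymes with a window held it, as did 4 of 5 regulators and 5 of 8 fatty acid enzymes. The Sp1 box GGGCGG occurred in 22 of 27 members (81.5%), against 51% of protein-coding genes. The palindromic E-box CACGTG occurred in 6 of 27 (22.2%; 9.18% of protein-coding genes), and the sterol element core TCACNCCAC in 1 of 27 (3.7%; 1.42% of protein-coding genes). That match, in Hmgcs1, began 137 bases before the start, with NF-Y boxes at -237, -176, -45 and 11. No motif lies inside another, the shares were not matched for base composition, and a match is a run of letters, not a measured site. Scd1, Scd2, Fads1, Fdft1, Fdps, Stard4 and Sqle had no window.

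Per kilobase of exon, fatty acid genes were the most abundant members. Over the 12 libraries, Scd2, a desaturase, had a mean level of 74.2 CPM per kb, Acly, which makes cytosolic acetyl-CoA from citrate, 46.9 CPM per kb, and Fasn, the fatty acid synthase, 43.9 CPM per kb. Scd1, another desaturase, followed with a mean level of 23.7 CPM per kb. Insig1 and Srebf1 both had a mean level of 17.4 CPM per kb and Srebf2 15.1 CPM per kb. Hmgcs1, which makes HMG-CoA, was the most abundant sterol enzyme at a level of 14.5 CPM per kb, and Idi1, the isopentenyl diphosphate isomerase, was the lowest member at 0.58 CPM per kb. Idi1 rested on 8 to 45 counts per library, against 998 to 2275 for Srebf2. Of the 50-base windows of Idi1, 30.5% recur in other genes, and 9.22% of its exon bases overlap another gene, so its low level is uncertain. The share of recurring windows was 32.8% for Me1, 13.6% for Hmgcs1 and 11.7% for Fdps.

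**Figure D1:**
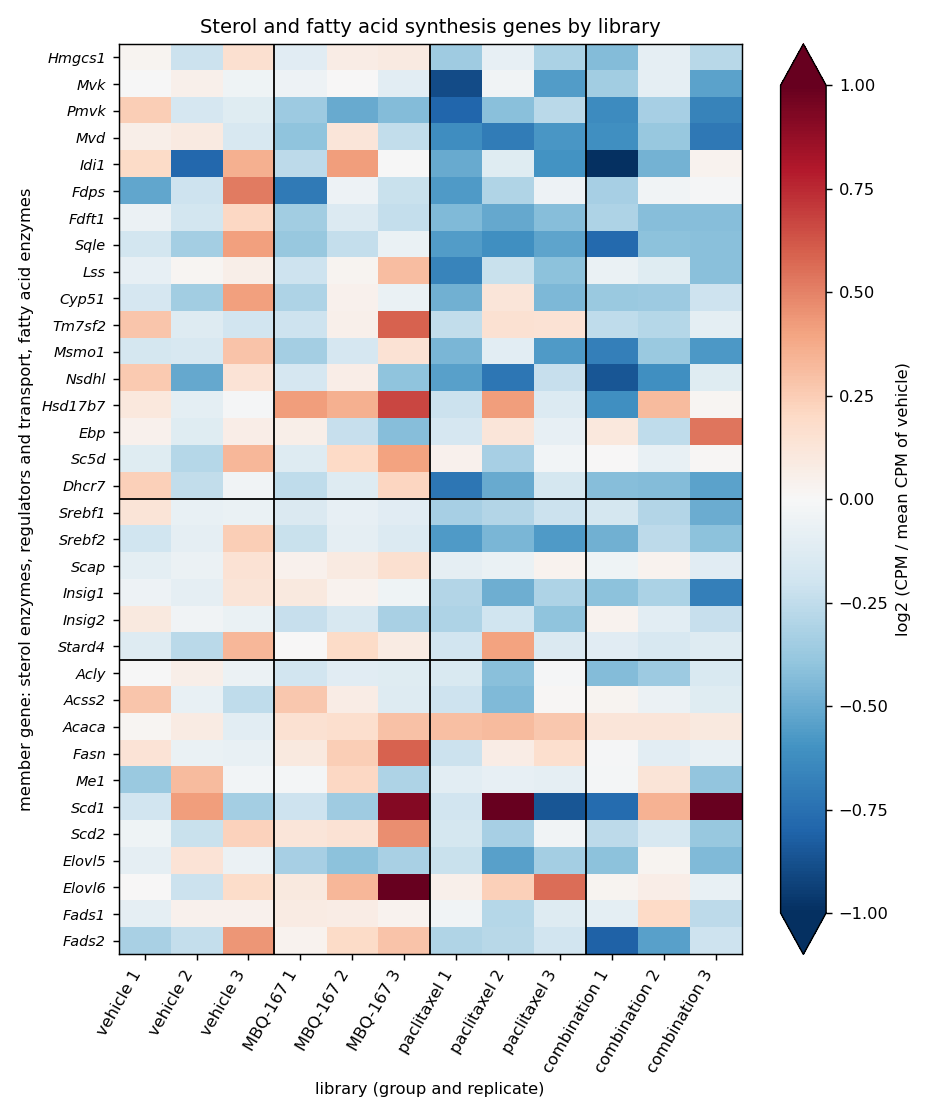
Level of the 34 members (rows, ordered by role with lines between sterol enzymes, regulators and fatty acid enzymes) in the 12 libraries (columns), as log2 of CPM over the mean CPM of vehicle; the colour scale ends at -1 and 1. Blue cells in the sterol block gather in the paclitaxel and combination columns, and Scd1 is dark red in 3 single libraries.

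Paclitaxel was set against vehicle first, as the comparison in which members passed the test. Srebf2 and Fdft1 passed as lower by edgeR's test, and neither call held under every alternative fit. Of the 34 members, 27 had a log2 fold change below 0. The median log2 fold change was -0.40 over the 17 sterol enzymes (15 below 0), -0.29 over the 6 regulators (5 below 0) and -0.15 over the 11 fatty acid enzymes (7 below 0), while it was close to 0 over all tested genes. By edgeR's quasi-likelihood test with Benjamini-Hochberg adjustment over all genes, 2 members passed at an adjusted p under 0.05, both lower. This is a small count, read against 5.66% of all tested genes called in either direction and 2.49% called lower. At an unadjusted p under 0.05 there were 14 members (41.2%), against 22.6% of all tested genes.

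Srebf2, the gene of SREBP2 (chr15:82147181-82205379, + strand, GRCm38), had 113, 122 and 154 CPM in vehicle and 87.4, 94.1 and 87.5 CPM in paclitaxel libraries. On this TMM-scaled level all paclitaxel libraries lay below all vehicle libraries, and vehicle library 3 was the highest of the 12. The TMM factors were 0.826 to 0.904 in vehicle and 1.03 to 1.22 in paclitaxel libraries, which lowers paclitaxel CPM against vehicle. By total count alone the groups overlap: paclitaxel library 1 had 1814 of 17001562 counts and vehicle library 1 had 1490 of 16025318. The log2 fold change of Srebf2 was -0.53 ± 0.12 (SE, n = 3 per group, edgeR adjusted p = 0.0239). Without vehicle library 3 the log2 fold change was -0.39 with an edgeR adjusted p of 0.0548. Leaving out any 1 paclitaxel library also ended the call, with adjusted p of 0.062 to 0.0825, and it held without vehicle library 1 (0.0278) or 2 (0.0331). It was also lost with a correction for GC content (-0.39, adjusted p = 0.135) and when only both groups were fitted (adjusted p = 0.0969).

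Fdft1, squalene synthase, the first enzyme committed to sterols (chr14:63145150-63179578, - strand), had 30.6, 28.1 and 36.8 CPM in vehicle and 23.4, 22.4 and 23.7 CPM in paclitaxel libraries. The groups did not overlap on this TMM-scaled level, and vehicle library 3 was again the highest. By total count alone they overlap, with 486 of 17001562 counts in paclitaxel library 1 and 405 of 16025318 in vehicle library 1. The log2 fold change of Fdft1 was -0.46 ± 0.13 (SE, edgeR adjusted p = 0.0482), and it lay at the threshold. The call held without vehicle library 2 (adjusted p = 0.0377) and was lost without any other single library of these groups, with log2 fold changes of -0.49 to -0.34 and adjusted p of 0.0843 to 0.15. It was also lost with limma voom (0.0525), with a replicate block (0.0609) and without a filter on low counts (0.0886). The GC correction (0.136) and a fit of only both groups (0.138) lost it too. Of its 50-base windows, 30.7% recur in other genes, chiefly Ctsb, which overlaps it on the opposite strand (18.3% of its exon bases overlap another gene), and the strand setting of the counting is not given in the sources used here.

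Other sterol enzymes lay in the same direction without passing. Mvd, which decarboxylates mevalonate diphosphate, had 12.3, 12.6 and 10.6 CPM in vehicle and 7.71, 7.27 and 7.92 CPM in paclitaxel libraries, a log2 fold change of -0.63 ± 0.18 (edgeR adjusted p = 0.0556). Sqle, squalene epoxidase, had 54.0, 48.3 and 81.3 CPM in vehicle and 41.6, 40.0 and 42.5 CPM in paclitaxel libraries, a log2 fold change of -0.57 ± 0.17 (adjusted p = 0.0699). Neither gene's groups overlapped, and Sqle leaned on vehicle library 3: its log2 fold change was -0.31 without that library. DESeq2 called both genes (adjusted p = 0.0229 for Mvd and 0.0323 for Sqle). Sqle also passed without a filter on low counts (0.0179), with a replicate block (0.0479) and without vehicle library 2 (0.0342). Hmgcs1 had 73.7, 62.5 and 80.8 CPM in vehicle and 56.4, 68.3 and 58.2 CPM in paclitaxel libraries, which overlap (log2 fold change -0.25 ± 0.13, adjusted p = 0.279). With the GC correction Hmgcs1 passed (-0.52, adjusted p = 0.0427), and without vehicle library 3 it was at -0.16. Lss, which closes the sterol ring (-0.42), Dhcr7, the last reductase (-0.45), Pmvk (-0.48) and Mvk (-0.46), kinases of the mevalonate steps, Nsdhl (-0.48) and Msmo1 (-0.37), enzymes of demethylation at C4, had log2 fold changes in this range, with adjusted p of 0.136 to 0.276. Msmo1 was at -0.20 without vehicle library 3, and Mvk at -0.28 without paclitaxel library 1 and -0.72 without paclitaxel library 2. The other sterol enzymes, Idi1, Fdps, Cyp51, Tm7sf2, Hsd17b7, Ebp and Sc5d, had adjusted p of 0.494 or more.

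Among the regulators, Insig1, itself a classic SREBP target whose product retains SCAP, had 59.0, 57.2 and 66.8 CPM in vehicle and 49.9, 43.6 and 49.4 CPM in paclitaxel libraries (log2 fold change -0.36 ± 0.12, adjusted p = 0.0902). Srebf1 had 121, 105 and 106 CPM in vehicle and 87.7, 90.1 and 95.0 CPM in paclitaxel libraries (-0.28 ± 0.11, adjusted p = 0.138). Both separated the groups without passing the test. Scap did not separate them, with 49.2, 50.5 and 57.9 CPM against 49.3, 50.1 and 53.7 CPM (-0.04 ± 0.10). Insig2, the INSIG that is less tied to SREBP activity, had a log2 fold change of -0.31 ± 0.11 (adjusted p = 0.121), and Stard4, a carrier of cholesterol between membranes, overlapped.

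All 3 paclitaxel libraries were below all 3 vehicle libraries for 10 of the 34 members, which are Srebf2, Srebf1, Insig1, Insig2, Fdft1, Mvd, Sqle, Pmvk, Lss and Elovl5, against 12.1% of all tested genes. They were above for 1 member, Acaca, against 13.2% of all tested genes. Of the 10, 5 are sterol enzymes and 4 regulators. These ranges are of TMM-scaled CPM. By total count alone several of the 10 overlap, Srebf2, Srebf1, Insig1, Fdft1 and Sqle among them, and the like share of all genes was not computed.

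**Figure D2:**
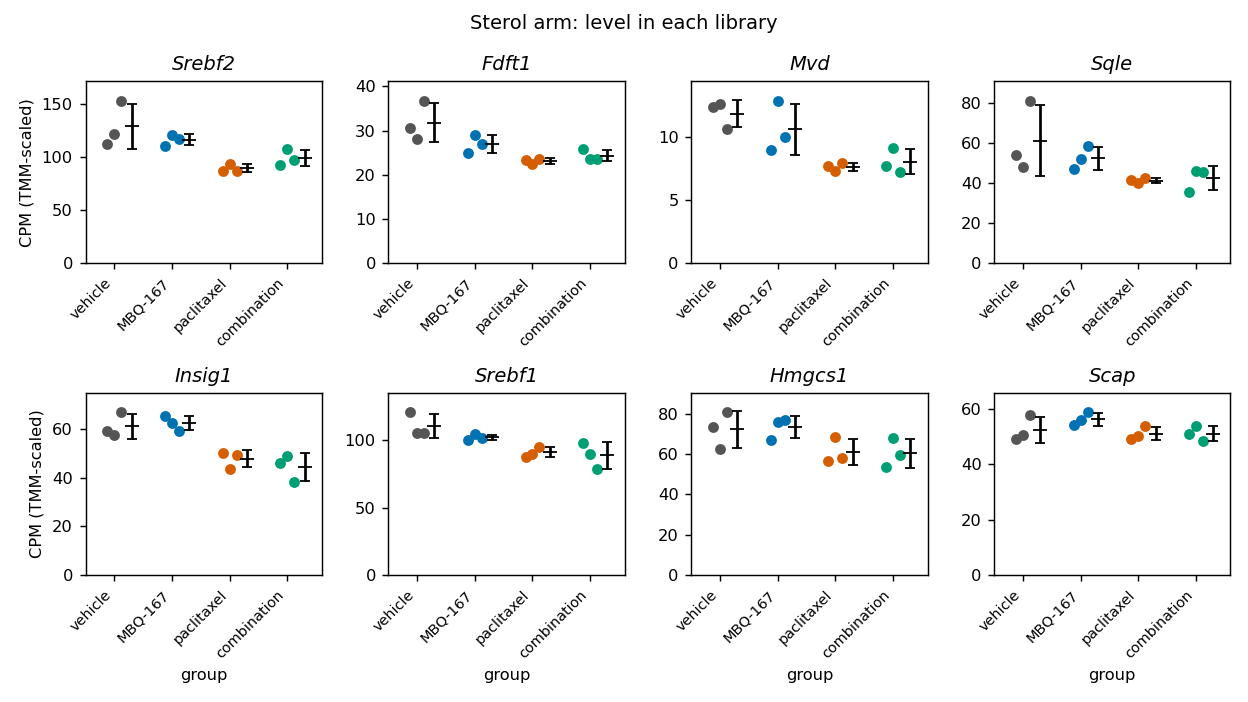
CPM (TMM-scaled) of 8 members of the sterol arm in each library; points are the 3 libraries of a group in replicate order, and the bar beside them is the mean ± SD. For Srebf2, Fdft1, Mvd, Sqle, Insig1 and Srebf1 the paclitaxel points lie below the vehicle points, and for Hmgcs1 and Scap the groups overlap.

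The fatty acid arm gave no call in paclitaxel against vehicle and no common direction. Acaca, the acetyl-CoA carboxylase that makes malonyl-CoA, had 37.5, 39.1 and 34.4 CPM in vehicle and 45.6, 46.0 and 44.5 CPM in paclitaxel libraries (log2 fold change 0.30 ± 0.10, edgeR adjusted p = 0.0969). Its paclitaxel libraries all lay above vehicle, and 52.6% of its 50-base windows recur in the gene Gm5182, so its counts are uncertain. Fasn had 500, 435 and 432 CPM in vehicle and 392, 480 and 513 CPM in paclitaxel libraries, which overlap (0.02 ± 0.14). Elovl5, an elongase of polyunsaturated fatty acids, had 59.2, 69.5 and 60.6 CPM against 54.1, 43.4 and 49.8 CPM (-0.36 ± 0.14, adjusted p = 0.134). The groups of Elovl5 did not overlap. Acly (-0.19), Scd2 (-0.18) and Elovl6, which lengthens palmitate (0.30), also missed the threshold, as did Acss2, Me1, Fads1 and Fads2.

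The combination was next set against the same 3 vehicle libraries, so its values are not independent of those above. The sterol arm was again below 0: 16 of 17 sterol enzymes, with a median log2 fold change of -0.31, and 6 of 6 regulators, with a median of -0.23. The 11 fatty acid enzymes had a median of -0.07. No member passed edgeR's test, against 1.84% of all tested genes called, although 11 members (32.4%) had an unadjusted p under 0.05, against 18.4% of all tested genes. DESeq2 called 1 member, Insig1, and limma voom 0, and edgeR without a filter on low counts called 2, Sqle and Msmo1. Over all genes these fits called 958, 243 and 849, so the member counts are small.

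Insig1 had the smallest p in this comparison, with 45.8, 48.9 and 38.1 CPM in combination libraries, all below vehicle (log2 fold change -0.46 ± 0.12, edgeR adjusted p = 0.0597). Srebf2 had 92.8, 108 and 97.3 CPM (-0.38 ± 0.12, adjusted p = 0.118) and Srebf1 97.9, 90.1 and 78.4 CPM (-0.32 ± 0.11, adjusted p = 0.138), both with no overlap with vehicle. Scap, at 50.9, 53.8 and 48.6 CPM, overlapped vehicle (-0.04 ± 0.10).

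Of the sterol enzymes, Mvd had 7.72, 9.11 and 7.22 CPM in combination libraries (-0.56 ± 0.18, adjusted p = 0.12). Sqle had 35.7, 46.2 and 45.8 CPM (-0.52 ± 0.17, adjusted p = 0.131) and Fdft1 25.8, 23.7 and 23.7 CPM (-0.39 ± 0.13, adjusted p = 0.125). All 3 genes lay below every vehicle library. Without vehicle library 3 the log2 fold changes of Srebf2, Sqle and Fdft1 were -0.24, -0.27 and -0.27, and that of Mvd was -0.64. Msmo1 (-0.54), Pmvk (-0.53), Dhcr7 (-0.46) and Nsdhl (-0.49) were of like size, and Hmgcs1, at 53.6, 68.1 and 59.7 CPM, overlapped vehicle (-0.26 ± 0.13).

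In the fatty acid arm of this comparison, Fads2, a desaturase of polyunsaturated fatty acids, had a log2 fold change of -0.49, Acly of -0.31, and Scd2 of -0.26. Without vehicle library 3, Fads2 was at -0.21 and Scd2 at -0.14. Fasn had 451, 423 and 432 CPM (-0.07 ± 0.14) and Elovl6 39.0, 40.2 and 36.4 CPM, a log2 fold change near 0. Both overlapped vehicle. Acaca, at 40.3, 40.3 and 39.6 CPM, lay just above all vehicle libraries (0.12 ± 0.10), and Elovl5, at 47.5, 64.2 and 46.4 CPM, overlapped (-0.26 ± 0.14). Over all members, 11 of 34 had every combination library below every vehicle library, against 9.86% of all tested genes, and 1 had every library above, against 11% of all tested genes. The 11 are Srebf2, Srebf1, Insig1, Fdft1, Mvd, Sqle, Pmvk, Mvk, Msmo1, Dhcr7 and Acly.

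**Figure D3:**
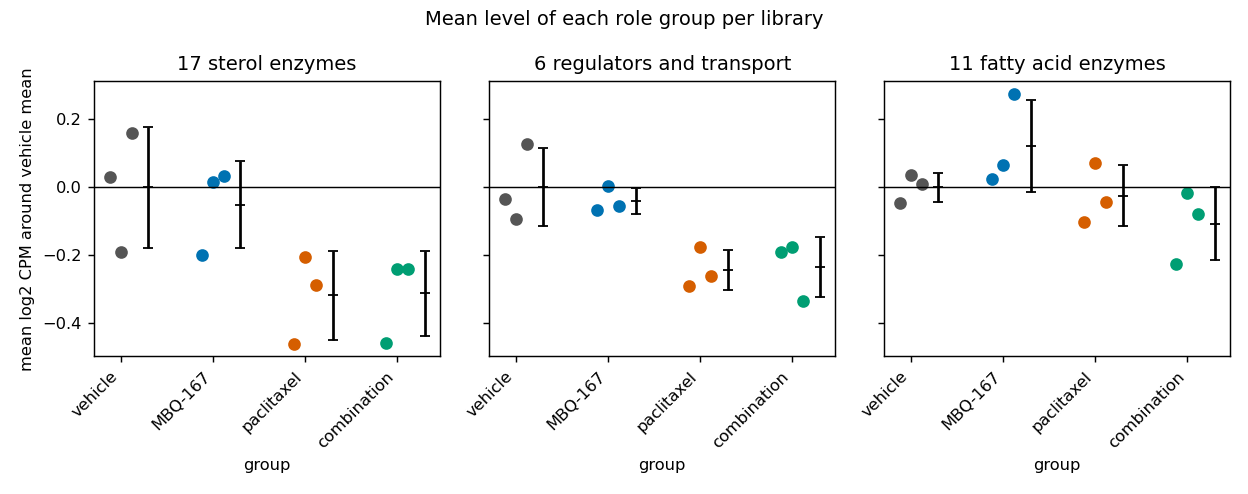
Mean log2 CPM of the members of each role group in each library, centred on the mean of vehicle; points are libraries and bars are mean ± SD (n = 3). Sterol enzymes were at -0.46 to -0.21 in paclitaxel and -0.46 to -0.24 in combination libraries, against -0.19 to 0.16 in vehicle, while the fatty acid enzymes of the groups overlap.

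The mean level of the sterol enzymes showed how narrow this separation was. On the log2 scale around the vehicle mean, the vehicle libraries had mean levels of 0.03, -0.19 and 0.16, and the paclitaxel libraries of -0.46, -0.21 and -0.29. Vehicle library 2 and paclitaxel library 2 differed little. The combination libraries had mean levels of -0.46, -0.24 and -0.24. For the 6 regulators the gap was wider, with -0.09 to 0.13 in vehicle, -0.29 to -0.18 in paclitaxel and -0.34 to -0.18 in combination libraries.

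Cell type markers also differed between the groups. All 8 neutrophil markers passed edgeR's test as lower in paclitaxel and in combination tumours, as did the haemoglobin genes Hba-a1 and Hbb-bs. Among 5 epithelial markers, Krt8 passed as lower in paclitaxel tumours, with a log2 fold change of -0.80 (edgeR adjusted p = 0.0236), and the summed epithelial level ran from 938 to 2720 CPM in vehicle and from 1050 to 1100 CPM in paclitaxel libraries. Vehicle library 3, the highest in neutrophil and epithelial markers, was also the highest of all 12 libraries for 9 members, Srebf2, Fdft1 and Sqle among them. In MBQ-167 tumours, where the mean log2 level of the sterol enzymes was -0.05 around vehicle, all 5 epithelial and all 8 neutrophil markers had fold changes below 0, with medians of -0.80 and -2.08, and none passed the test. The epithelial median was -0.80 in paclitaxel and -0.71 in the combination, and the neutrophil median -3.27 and -3.13. The part of these markers in the results was not tested. Without that library the median log2 fold change of the sterol enzymes in paclitaxel was -0.20, with 13 to 17 of the 17 enzymes below 0 over the 6 fits that leave out 1 library.

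MBQ-167 against vehicle showed no shared shift of the members. Of 34 members, 17 were below 0, and the median log2 fold change was -0.11 over sterol enzymes, -0.04 over regulators and 0.17 over fatty acid enzymes. No member passed edgeR's test, where 0.0931% of all tested genes were called, and 5 members (14.7%) had an unadjusted p under 0.05, near the 12.9% of all tested genes. DESeq2 and limma voom also called 0 members, against 325 and 15 of all genes.

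The members with the smallest p were fatty acid genes. Elovl6 had 38.5, 33.1 and 43.5 CPM in vehicle and 41.0, 48.3 and 86.6 CPM in MBQ-167 libraries (log2 fold change 0.61 ± 0.23, edgeR adjusted p = 0.276). Fasn had 487, 539 and 684 CPM in MBQ-167 libraries (0.32 ± 0.14, adjusted p = 0.353). Both genes were highest in MBQ-167 library 3, and without it their log2 fold changes were 0.22 and 0.17. Elovl5 had 50.1, 47.4 and 50.5 CPM, below every vehicle library (-0.36 ± 0.14, adjusted p = 0.297). Acaca, at 41.0, 41.5 and 45.4 CPM, lay above them (0.21 ± 0.10), Scd2 had a log2 fold change of 0.25 and Acly of -0.14.

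The sterol and regulator genes of MBQ-167 tumours mostly overlapped vehicle. Srebf2 had 111, 122 and 118 CPM (-0.15 ± 0.12), Srebf1 99.9, 104 and 102 CPM (-0.11 ± 0.11) and Insig1 65.3, 62.5 and 59.2 CPM (0.03 ± 0.12). Srebf1 alone of these lay below all vehicle libraries. Scap had 54.1, 56.0 and 58.8 CPM (0.10 ± 0.10), Hmgcs1 67.0, 76.2 and 76.9 CPM (0.02 ± 0.13) and Sqle 47.0, 52.0 and 58.6 CPM (-0.22 ± 0.17). These 3 genes overlapped vehicle. Mvd, at 8.95, 12.9 and 9.98 CPM, had a log2 fold change of -0.16 ± 0.18, and Fdft1, at 25.0, 29.0 and 27.0 CPM, of -0.24 ± 0.13. Pmvk (-0.43) and Insig2 (-0.24) lay below every vehicle library, and Hsd17b7, a reductase of the sterol demethylation steps (0.49), above. In all, 5 members were below without overlap, against 8.79% of all tested genes, and 2 above, against 8.54% of all tested genes.

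**Figure D4:**
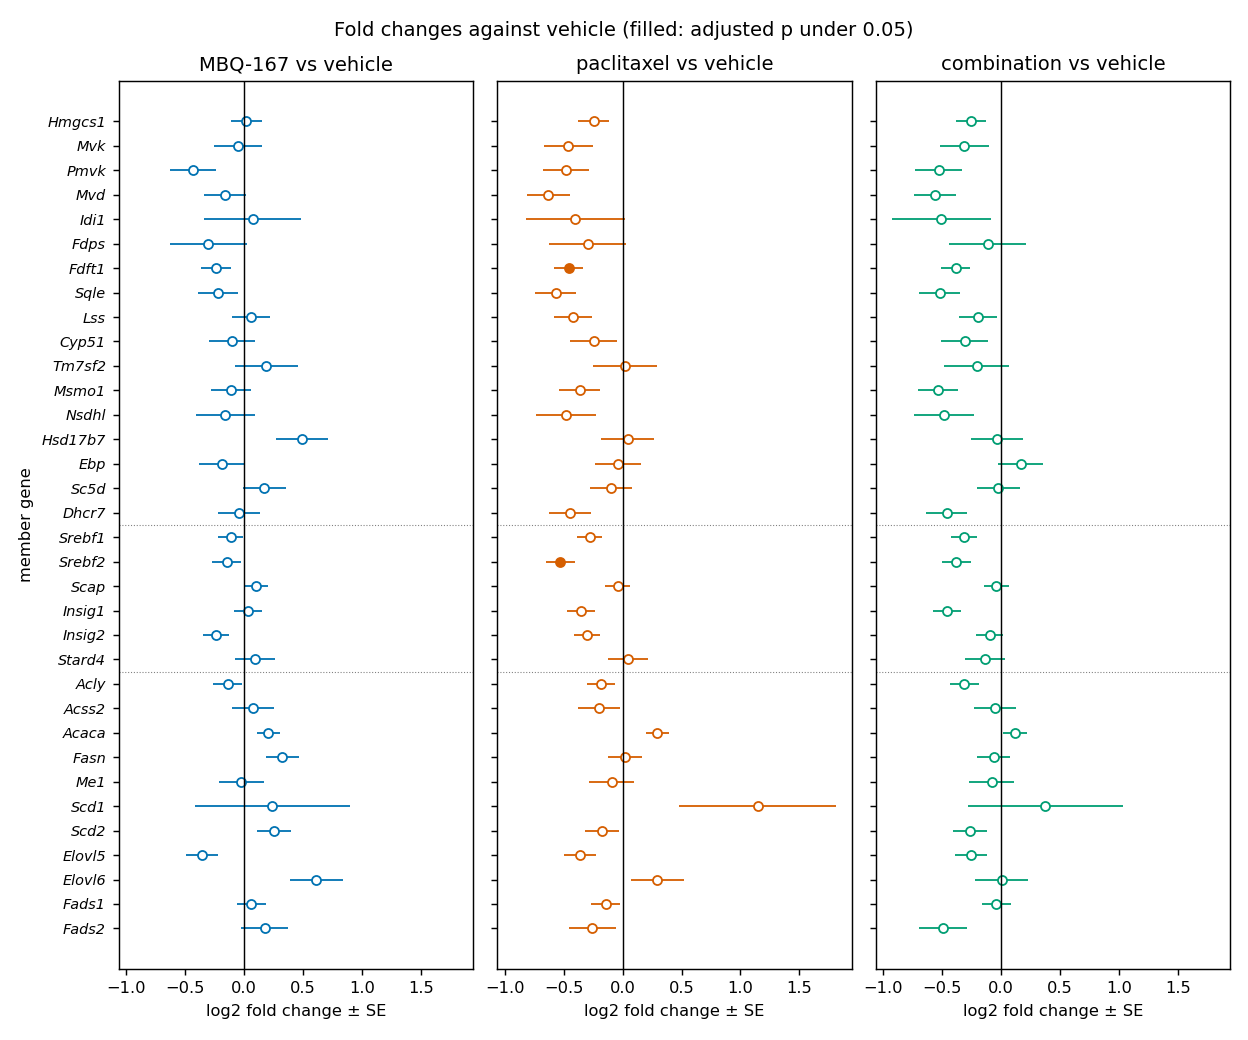
Log2 fold change ± SE of each member against vehicle for MBQ-167, paclitaxel and the combination (n = 3 per group, edgeR); filled points passed at an adjusted p under 0.05, and dotted lines part sterol enzymes, regulators and fatty acid enzymes. Srebf2 and Fdft1 in paclitaxel are the only filled points, and the same 3 vehicle libraries stand behind every panel.

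Set against MBQ-167, the combination had 29 of 34 members below 0, with a median log2 fold change of -0.28 over sterol enzymes, -0.22 over regulators and -0.13 over fatty acid enzymes. No gene of any kind passed edgeR's test (0% of all tested genes), and 9 members (26.5%) had an unadjusted p under 0.05, against 5.15% of all tested genes, while DESeq2 and limma voom called 0 members. The members with the smallest p were Insig1 (log2 fold change -0.50 ± 0.12, adjusted p = 0.879), Scd2 (-0.52 ± 0.14), Fads2 (-0.67 ± 0.20), Fasn (-0.39 ± 0.14) and Elovl6 (-0.61 ± 0.23). Without MBQ-167 library 3, Fasn was at -0.24 and Elovl6 at -0.22. All combination libraries were below all MBQ-167 libraries for 14 members, against 5.92% of all tested genes, and above for 0 members, against 6.59% of all tested genes.

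Set against paclitaxel, the combination showed members on both sides: 19 of 34 were below 0, and the median log2 fold change was -0.01. No gene passed edgeR's test (0% of all tested genes), 0 members had an unadjusted p under 0.05, against 2.36% of all tested genes, and DESeq2 and limma voom called 0 members. The smallest p were those of Insig2 (0.21 ± 0.11) and Acaca (-0.18 ± 0.10). Only Acaca separated the groups, lower in the combination, against 3.82% of all tested genes lower and 3.45% higher without overlap.

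The interaction, which is 0 where the effects of both drugs add on the log2 scale, gave no call among members, where 0.0603% of all tested genes were called. DESeq2 and limma voom called 0 members, against 153 and 11 of all genes. An unadjusted p under 0.05 was found for 4 members (11.8%), near the 9.83% of all tested genes. Elovl6 had an interaction of -0.90 ± 0.32 (SE, log2; edgeR adjusted p = 0.364) with log2 fold changes of 0.61 and 0.30 for the single drugs and near 0 for the combination. Without MBQ-167 library 3 the interaction of Elovl6 was -0.51. Acaca had an interaction of -0.39 ± 0.14, Insig2 of 0.44 ± 0.16 and Elovl5 of 0.46 ± 0.19, the last at 0.29 without combination library 2.

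Genes that surround the pathway, outside the 34, mostly did not pass. The list holds 29, among them site proteases of SREBP, INSIG ubiquitin ligases, LXR receptors and the NF-Y subunits. Mid1ip1, a partner of acetyl-CoA carboxylase that promotes its assembly into filaments, was the 1 gene called. Over all tested genes, 5.66% were called in paclitaxel and 1.84% in the combination, so 1 of 29 is a small count. Mid1ip1 had 25.2, 23.0 and 27.4 CPM in vehicle, 19.1, 16.0 and 18.5 CPM in MBQ-167, 13.5, 15.1 and 17.1 CPM in paclitaxel, and 14.7, 16.9 and 15.2 CPM in combination libraries. Every treated library lay below every vehicle library. Mid1ip1 passed as lower in paclitaxel tumours (log2 fold change -0.73 ± 0.14, edgeR adjusted p = 0.0118) and in the combination (-0.69 ± 0.14, adjusted p = 0.0298), and in MBQ-167 it had -0.49 ± 0.14 (adjusted p = 0.165). Its calls were not followed over the alternative fits. The median log2 fold change of the 29 was -0.04 in paclitaxel, -0.05 in the combination and 0.02 in MBQ-167 tumours.

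Scd1 had the widest range over the 12 libraries of any member, and the largest coefficient of variation within MBQ-167, paclitaxel and combination libraries, while in vehicle Fdps, Idi1 and Fads2 exceeded it. Vehicle libraries had 71.5, 109 and 64.4 CPM, MBQ-167 libraries 70.6, 63.8 and 154 CPM, paclitaxel libraries 71.4, 427 and 45.2 CPM, and combination libraries 47.9, 104 and 165 CPM. The highest library was 9.45 times the lowest, and both were paclitaxel libraries. Its log2 fold change in paclitaxel was 1.15 ± 0.66 (edgeR adjusted p = 0.329), and -0.48 without paclitaxel library 2. Without a filter on low counts it passed as higher (1.14, adjusted p = 0.0277), while limma voom gave 0.46 (adjusted p = 0.73). It was 0.24 ± 0.66 in MBQ-167 and 0.38 ± 0.66 in combination tumours, with an SE that draws on the spread in all 12 libraries. The log2 fold changes turned to -0.28 and -0.11 without MBQ-167 library 3 and combination library 3.

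Fat cells, which the mammary fat pad holds in number, express Scd1 strongly. The summed level of 9 adipocyte markers, of which 0 passed edgeR's test in any comparison with vehicle, was 39.9, 84.4 and 17.2 CPM in vehicle, 40.3, 24.1 and 80.2 CPM in MBQ-167, 43.5, 219 and 14.6 CPM in paclitaxel, and 34.3, 82.7 and 128 CPM in combination libraries. Libraries high in these markers were high in Scd1. As a description over 12 libraries that share depth and tissue source, the log2 level of Scd1 and the mean log2 level of the markers had Pearson's r = 0.85 and Spearman's rho = 0.874, with r = 0.881 within groups and r = 0.887 without paclitaxel library 2 and vehicle library 3, the farthest from the median. The other fatty acid enzymes did not share this, with Pearson's r over the 12 libraries from -0.458 (Scd2) to 0.365 (Acaca), and Fasn at -0.032. Leptin (Lep), a defining adipocyte gene, was at 0 in vehicle library 3 and MBQ-167 library 2. The part of fat cells in the Scd1 values was not tested.

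**Figure D5:**
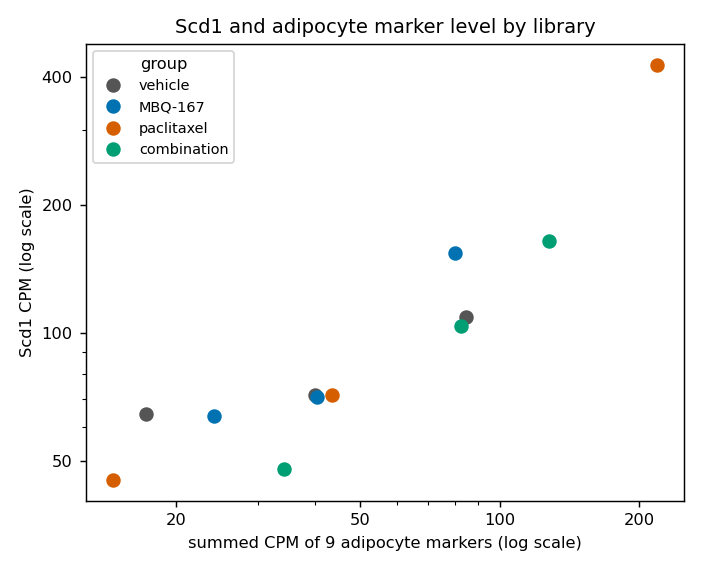
Scd1 level against the summed level of 9 adipocyte markers in the 12 libraries, both in CPM on log axes, coloured by group. The paclitaxel library at 219 CPM of markers holds 427 CPM of Scd1, and the paclitaxel library at 14.6 CPM of markers holds 45.2 CPM.

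Within groups, the sterol enzymes varied with each other to a modest degree, and so did the regulators. Over deviations from group means in 12 libraries, the mean r was 0.238 over 136 pairs of sterol enzymes and 0.215 over 15 pairs of regulators. Between the sets, over 102 pairs of a sterol enzyme and a regulator, the mean r was lower, at 0.16. It was 0.032 over 55 pairs of fatty acid enzymes and near 0 over all pairs of tested genes. Of the sterol pairs, 103 had a correlation above 0 (median r of 0.231), and the like share over all genes was not computed. The most alike pairs across the members were Cyp51, the lanosterol demethylase, with Stard4 (r = 0.969), Fasn with Tm7sf2, a sterol reductase (r = 0.945), and Sqle with Fads2 (r = 0.905). These pairs share their libraries and depth, and the values are a description.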

How the data were processed

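Tumour RNA was sequenced in 12 libraries, with polyA RNA as the molecule per the labels. The authors deposited raw counts for each gene, with no scaling. The submitters' processing notes name HISAT2, HTSeq, DESeq2 and the build GRCm38. Tool versions, the annotation, the strand setting and the handling of reads with several matches were not given there. Symbols matched 45143 identifiers, and positions and exon lengths came from GENCODE vM21. Promoters came from RefSeq (GRCm38.p6).

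Genes were kept by filterByExpr (minimum count 10), and all 12 libraries were fitted together with the quasi-likelihood test of edgeR 4.0.16 (R 4.3.3) with TMM scaling, 6 comparisons, 8 residual degrees of freedom and a biological coefficient of variation of 0.214. Adjustment (Benjamini-Hochberg) ran over all 18252 tested genes. The SE of a log2 fold change came from this joint fit, so it reflects the spread in all 12 libraries and not only in the groups compared. The fit was also run on simulated counts, with 200 random genes changed and the same spread for every gene. The changes set there were larger than those of the sterol enzymes, so that run does not gauge how well such small changes are found. CPM uses TMM-corrected library sizes, and CPM per kb divides by the exon length. The TMM factors were 0.826 to 0.904 in vehicle, 0.94 to 1.045 in MBQ-167, 1.03 to 1.22 in paclitaxel and 0.933 to 1.18 in combination libraries. Fold changes and separations of groups rest on these factors, and no fit without such factors was run. Libraries of a group differed beyond counting noise, so none was counted as a duplicate.

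Values in every library are given for members past the threshold in any comparison, for the 3 members of each role group with the smallest p against vehicle, and for Srebf1, Srebf2, Scap, Insig1, Hmgcs1, Sqle, Fasn and Scd1; any other named member was picked with its values in view. The members and lists were chosen with earlier results of these data known. Alternatives were DESeq2 1.42.0, limma 3.58.1 voom, RLE size factors, no filter, 1 CPM in 3 libraries, only the groups compared, a replicate block, a GC correction, protein-coding genes, and leaving out each library.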

Additional observations from a re-analysis of the deposited data

How the results depend on the processing

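The number of members called in paclitaxel against vehicle, 2 with edgeR, was 4 with DESeq2 (Mvd and Sqle added), 1 with limma voom (Srebf2), 3 without a filter (Srebf2, Sqle and, as higher, Scd1; Fdft1 lost), 1 with the GC correction (Hmgcs1) and 0 when only the groups compared were fitted, and it ran from 0 to 3 when 1 library was left out. In the combination, 0 with edgeR became 1 with DESeq2 (Insig1) and 2 without a filter (Sqle and Msmo1). The replicate numbers were not used as pairs in the main edgeR fit. Correlations of same-numbered libraries ran from -0.18 to 0.239, and 3 of 18 were over 0.1. Of 12 libraries, 6 matched their own number best. No chance share was computed for these values, so they do not settle whether the numbers pair the libraries. With the replicate block, paclitaxel again had 2 members called, Srebf2 and Sqle. Counts over all genes moved more: with DESeq2, 325 genes passed in MBQ-167, 1772 in paclitaxel and 958 in the combination; without a filter 392, 1554 and 849; with only the groups compared 5, 251 and 7; with the GC correction, 482 in paclitaxel and 90 in the combination. DESeq2 and the fit without a filter gave 1 and 4 genes for the combination against MBQ-167, 5 and 7 against paclitaxel, and 153 and 197 in the interaction, which could not be fitted with only the groups compared.

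Among the values given above, fold changes that turned sign under an alternative missed the threshold in both fits. With the GC correction, which moved the median of all genes to -0.056 in paclitaxel, log2 fold changes became -0.111 for Hmgcs1 and -0.009 for Insig1 in MBQ-167, 0.104 for Scap in paclitaxel, and 0.05 for Scap, 0.02 for Fasn and -0.179 for Elovl6 in the combination. Elovl6 was at 0.000 there without a filter. Leaving out 1 library gave log2 fold changes in MBQ-167 of -0.077 to 0.106 for Hmgcs1, -0.014 to 0.1 for Insig1, -0.367 to 0.037 for Sqle and -0.28 to 0.501 for Scd1. In paclitaxel it gave -0.065 to 0.122 for Fasn, -0.094 to 0.032 for Scap and -0.483 to 1.606 for Scd1, and in the combination -0.104 to 0.000 for Fasn, -0.092 to 0.103 for Elovl6, -0.092 to 0.036 for Scap and -0.107 to 0.719 for Scd1. Members of low count, such as Idi1, allow only coarse folds. The cause of these changes was not tested.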
